A study of Mus musculus with 2 samples.

Results

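The proteasome genes of the mouse were examined for islands of TCF-1 ChIC-seq reads in lymphoid tissue inducer (LTi) cells. They were chosen by name: all protein-coding genes of the mm10 RefSeq table whose symbols start with Psma, Psmb, Psmc, Psmd, Psme or Psmg, which are 50 of 21887 nuclear protein-coding genes. An island, a stretch of clustered reads called by the authors, was given to a gene when it shared at least 1 bp with the gene body or the 1000 bp on either side. Of the 50 genes, 2 are not proteasome parts: Psmc3ip encodes a cofactor of meiotic recombination, and Psme3ip1 a protein that binds the activator encoded by Psme3.

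LTi cells are innate lymphoid cells that organise lymph nodes and Peyer's patches. In ChIC-seq an antibody, here against the transcription factor TCF-1 (gene Tcf7), carries micrococcal nuclease to chromatin, and the fragments it releases are sequenced. Both libraries came from 500 fixed C57BL/6 cells each, sorted as Lin-, CD127+, CCR6+, KLRG1-, NK1.1- and NKp46-. One was made from Tcf7+/+ cells of Peyer's patches, the other from Tcf7fl/fl-VavCre cells of the small intestine lamina propria. Vav-driven Cre acts in the haematopoietic lineage as a whole, so deletion was not limited to LTi cells. Genotype and tissue differed together with 1 library each, and their parts in any difference cannot be told apart.

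The island table gives 2 read counts per island, for a peak and a control library, and its header ties neither to a sample. All values are therefore given as peak against control library, with no direction between genotypes and no test between conditions. The 19531 islands held 483771 peak-library and 189291 control-library reads. Reads outside islands, and thus whole-library depth, are unknown. A fold is the peak-library count divided by the control-library count after scaling the latter by 1.997, the factor behind the authors' own folds. Where islands are pooled, their reads are summed first. Islands are called where peak-library reads cluster. Their folds, intervals and tests thus reuse counts that helped to select them, which favours folds above 1. Intervals are exact 95% Clopper-Pearson intervals for counting error only, since reads copied by PCR are not independent molecules. Marker genes were also looked at, although islands are not expression and do not settle the cell label. All 8 LTi marker genes (Il7r, Ccr6, Kit, Id2, Il1r1, Rora, Tnfsf11 and Ltb) had an island, where 47.5% of all protein-coding genes had one. They pooled to a fold of 2.63 (2.28 to 3.05) over 47 islands, 16 of them at Il1r1 and 14 at Rora. Single genes ran from 1.51 (1.09 to 2.13) at Il7r to 8.26 (3.66 to 23.1) at Kit. Of 5 T cell genes 4 had an island, with 1.79 (1.06 to 3.16). Cd3d held 39 against 7 of their 68 against 19 reads, a fold of 2.79 (1.23 to 7.39). Cd3g stood at 1.00 (0.312 to 3.73) and Cd3e at 0.787 (0.279 to 2.39). Cd5 had 8 against 0 reads with a lower limit of 0.855, and Cd6 had no island. The other lists had an island at 1 of 5 genes each: Prf1 for NK cells and ILC1 with 10 against 1 reads, Cdh1 for epithelium with 14 against 3, and Cd14 for myeloid cells with 12 against 5. Their folds were 5.01 (0.712 to 217), 2.34 (0.652 to 12.7) and 1.20 (0.394 to 4.35), so all 3 intervals included 1. The part of other cells in the results was not tested.

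The proteasome degrades proteins tagged with ubiquitin. Its 20S core is a barrel of alpha and beta rings with the proteolytic sites in beta subunits, and its 19S cap binds, unfolds and feeds in substrates. Cells of the immune system, and cells exposed to interferon, exchange the catalytic beta subunits for the inducible Psmb8, Psmb9 and Psmb10, which gives the immunoproteasome known for cutting peptides for MHC class I.

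Islands lay at most proteasome genes. Of the 50 genes 44 had an island, 40 of them 1 island and 4 of them 2, and these were 48 islands in all. Among all protein-coding genes 47.5% had an island by the same rule. An island at the authors' FDR of 0.05 or less lay at 23 of the 50 genes, against 31.6% of all protein-coding genes. The 6 genes without an island were Psma8, Psmb11, Psmd10, Psmd14, Psme2b and Psmg3. Psma8, an alpha subunit of the testis, and Psmb11, the beta subunit of the thymoproteasome of thymic cortical epithelium, are known for expression in those tissues. Psmb11 had its nearest island 6710 bp away, the closest of the 6, and Psmd10, on the X chromosome, had its nearest 404625 bp away. At the other side of the limit, an island of Psme4 lay outside the gene body and reached into the flank, from -1374 to -175 bp relative to the start. Psme2b is listed as a copy of Psme2, and how reads that fit both were placed is not given in the sources used here.

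The excess of peak-library over control-library reads at these islands was small. The 48 islands held 1053 against 406 reads, pooling to a fold of 1.30 (1.16 to 1.46). The same quantity was 1.62 (1.61 to 1.63) over the 19513 nuclear islands that held under 200 peak-library reads. The value differed with position: islands over a RefSeq gene start, as at least 34 of the 48 were, had a pooled fold of 1.41 (1.40 to 1.43) over 6051 islands, and the 13462 islands over no start had 1.79 (1.78 to 1.81). Ribosomal protein genes, with islands at 70 of 76 genes, stood at 1.28 (1.18 to 1.39). Nuclear genes of oxidative phosphorylation, with islands at 68 of 87, stood at 1.42 (1.30 to 1.56). With the totals of both columns set equal, the proteasome value became 1.01 (0.904 to 1.14), so its distance from 1 rests on the scaling. Those totals, 483771 against 189291 reads, include 18 islands that are mitochondrial or hold 200 or more peak-library reads. The 19513 other islands held 386196 against 119307 reads, so the 18 weigh heavily in the equal-totals value. A value without them was not computed.

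**Figure D1:**
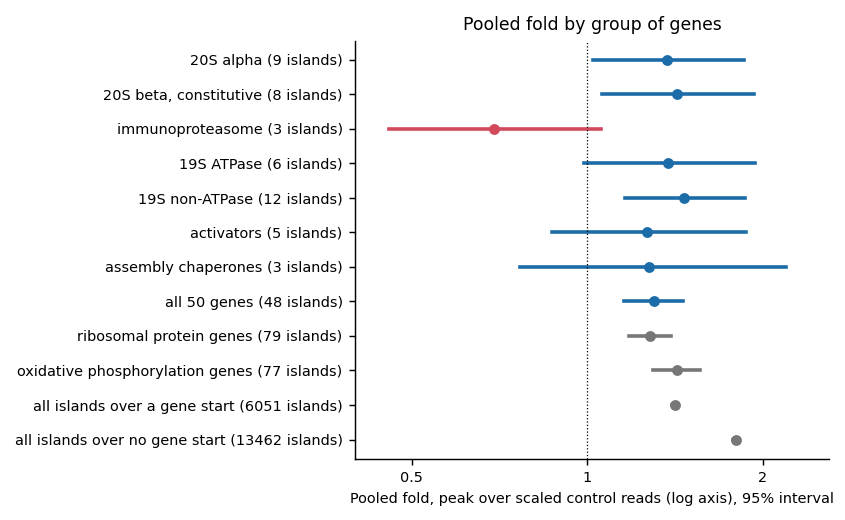
Pooled fold (x axis, log scale; points) with its exact 95% interval (lines) for groups of proteasome genes, with ribosomal protein genes, oxidative phosphorylation genes and all islands over or off gene starts below. The immunoproteasome point lies at 0.692, left of the line at 1, and the alpha, constitutive beta, 19S, activator and assembly chaperone groups lie between 1.26 and 1.47.

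Single islands were weak, as were many others over gene starts. The authors' FDR of 0.05 or less was met by 23 of the 48 islands, against 62.5% of all islands, and an FDR of 1e-05 or less by 5, against 20.7%. These 5 lay at Psma7, Psmb4, Psmb7, Psmd8 and Psme4. A fold below 1 was found for 9 of the 48 islands (18.8%), against 10.2% of all islands. Islands over a gene start came nearer to the 48: 52.3% met an FDR of 0.05 and 14.7% had a fold below 1. At ribosomal protein genes these shares were 44.3% and 20.3%, and at oxidative phosphorylation genes 48.1% and 16.9%. The authors' FDR takes the control count as known without error. An exact conditional binomial test, one-sided, that lets both counts vary passed none of the 48 islands after Benjamini-Hochberg adjustment over all islands, against 0.43% of all islands, and the smallest adjusted p of a member was 0.0866 (Psmd8). With so small a share of all islands, none of 48 does not set these genes apart. At an unadjusted p under 0.05 it passed 8 of the 48, against 24.1% of all islands. These tests compare 2 libraries and not 2 conditions. The median authors' fold of the 48 islands was 1.38 (quartiles 1.05 and 2.00), where islands over a gene start had a median of 1.50 and islands over none 2.13.

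**Figure D2:**
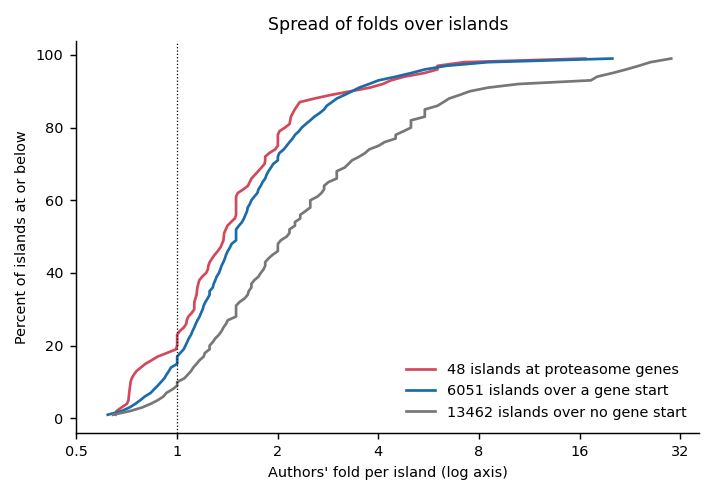
Percent of islands (y axis) at or below each authors' fold (x axis, log scale) for the 48 islands at proteasome genes, for all islands over a gene start and for all islands over none. The curve of the proteasome genes (median 1.38) runs beside that of start islands (median 1.50) and left of that of the other islands (median 2.13).

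The islands sat on gene starts. RefSeq start sites were at hand for 42 of the 50 genes, and 37 of these had an island. At 34 of the 37 an island covered a start. Among all protein-coding genes with a listed start and an island, 78.5% had a start covered. The 3 exceptions were Psma3, Psmb10 and Psme4. At Psma3 one island covered the outer end of the gene and the other ended just before the listed start. At Psme4 the islands lay on either side of the start, and at Psmb10 the island lay inside the gene, 792 bp past the start. Start sites for Psma8, Psmb1, Psmb2, Psmb7, Psmc3, Psmd3, Psmd7 and Psmg2 were not used here, and the 7 of these with islands had one over an end of the gene. Of the 48 islands 16 also lay within 1000 bp of another protein-coding gene, for example Tbp at Psmb1, Sirt3 at Psmd13 and Mrpl32 at Psma2, so their reads do not belong to the proteasome gene alone. The 16 shared islands had a pooled fold of 1.32 (1.10 to 1.59) and the 32 others 1.29 (1.11 to 1.50).

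**Figure D3:**
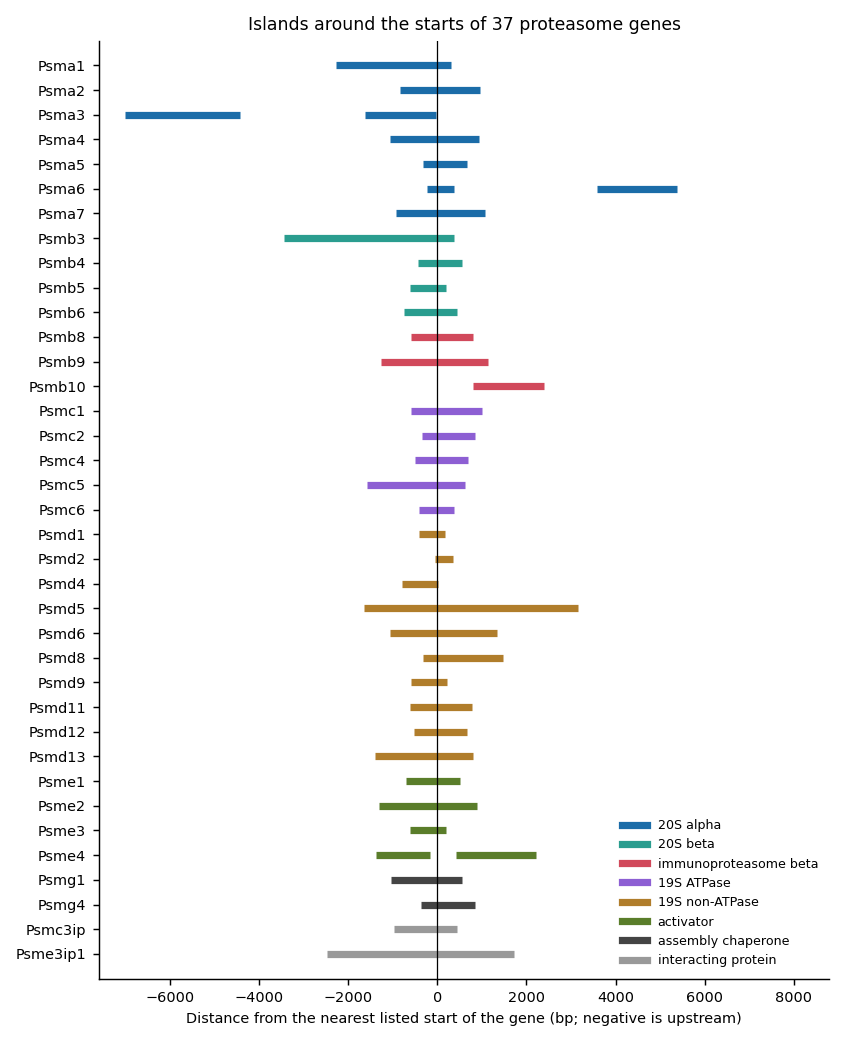
Islands (bars) of the 37 proteasome genes with an island and a listed start, by distance in bp from the nearest listed start (x axis, negative is upstream), coloured by role. At 34 genes a bar crosses 0, and Psma3, Psmb10 and Psme4 are the exceptions.

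The alpha subunits form the outer rings of the 20S core and gate its entrance. Of the 8 genes 7 had islands, 5 with an FDR of 0.05 or less, and their 9 islands held 175 against 64 reads, pooling to a fold of 1.37 (1.02 to 1.85). Psma3 had the most peak-library reads, 43 against 18 over 2 islands, a pooled fold of 1.20 (0.676 to 2.20). Psma1 had 37 against 15 reads, a fold of 1.24 (0.662 to 2.42). At both genes the interval included 1. Psma5 followed with 22 against 6 reads, for a fold of 1.84 (0.722 to 5.54). Psma6 had the same 22 peak-library reads, over 2 islands with 8 control-library reads. Psma2 was the one alpha gene below 1, with 18 against 12 reads, for a fold of 0.751 (0.342 to 1.71), in an island shared with Mrpl32, a mitochondrial ribosomal protein gene. Psma4 had 20 against 5 reads, for a fold of 2.00 (0.730 to 6.83).

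Psma7 stood apart among the alpha genes because its island, from 180041401 to 180043400 on chromosome 2, held no control-library read. It had 13 peak-library reads, which gave a fold of 2.17 when the control library was set to a floor of 3 reads. The exact lower limit, which also lets the 13 reads vary, was 1.53. The authors' FDR was 2.19e-14, while the one-sided exact binomial p was 0.0051 before and 0.0992 after adjustment over all islands. The island also reached Ss18l1, the neighbouring gene.

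The constitutive beta subunits line the inner rings. All 7 genes, Psmb1 to Psmb7, had islands, and 5 passed an FDR of 0.05. Their 8 islands held 176 against 62 reads, pooling to a fold of 1.42 (1.06 to 1.93). Psmb3 had the most peak-library reads, 47 against 17, with a fold of 1.38 (0.780 to 2.57), in a 3800 bp island that reaches Pcgf2. Psmb2 was next and went the other way, with 33 against 23 reads, for a fold of 0.719 (0.409 to 1.28). Psmb4 had 18 against 2 reads, for a fold of 4.51 (1.08 to 40.1), so with only 2 control-library reads its size is poorly fixed. Psmb1 had 18 against 3 reads, for a fold of 3.00 (0.877 to 15.9).

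The constitutive catalytic subunits are Psmb5, Psmb6 and Psmb7, which carry the chymotrypsin-like, caspase-like and trypsin-like sites. Psmb5 (chromosome 14, 54614120 to 54617995) had 10 against 7 reads over its start and a fold of 0.715 (0.246 to 2.21). Psmb6 (chromosome 11, 70525324 to 70527858) had 28 against 6 reads over its start and a fold of 2.34 (0.949 to 6.90). Psmb7 (chromosome 2, 38588046 to 38643952) had 2 islands with 12 against 1 and 10 against 3 reads, together a fold of 2.75 (0.935 to 11.0). Each interval included 1, while the 3 genes pooled, with 60 against 17 reads, stood at 1.77 (1.02 to 3.23).

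All 3 immunoproteasome genes had an island, and in each the scaled control library was the higher one. Psmb8, which replaces Psmb5, lies on chromosome 17 at 34198195 to 34201454. It had 16 against 10 reads over its start and a fold of 0.801 (0.342 to 1.98). Psmb9, which replaces Psmb6, lies close by at 34182030 to 34187330. Its island held 29 against 22 reads, a fold of 0.660 (0.366 to 1.21). Psmb10, which replaces Psmb7, lies on chromosome 8 at 105935728 to 105938392, and its island inside the gene held 13 against 10 reads, a fold of 0.651 (0.264 to 1.66). None of the 3 met an FDR of 0.05, which the authors' table gives as 1 for each. It gives the same for all 9 proteasome islands with a fold below 1, so this adds nothing to the folds. Each interval included 1. Unscaled, the peak library had the more reads at all 3, so the side of 1 depends on the scaling. With equal totals the 3 pooled to 0.540 (0.357 to 0.824).

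Set against each other, the 2 classes differed in pooled fold. The interval of their ratio, given below, takes all reads as independent and leaves out the spread between genes. The immunoproteasome islands held 58 against 42 reads, pooling to a fold of 0.692 (0.457 to 1.05), and the 45 islands of the 47 other genes, here called constitutive, held 995 against 364, a pooled fold of 1.37 (1.21 to 1.55). The ratio of the immunoproteasome to the constitutive fold was 0.505 (0.328 to 0.785), and it does not depend on the scaling. Without Psmc3ip and Psme3ip1, which are no proteasome parts, it was 0.498 (0.322 to 0.775). The 47 genes also include Psme1 and Psme2, which are interferon-inducible, and no ratio without them was computed. Per kb of island the immunoproteasome genes had 10.7 peak-library reads against 13.6 at the constitutive genes, and 7.78 control-library reads against 4.99. Against the 3 constitutive counterparts alone the ratio was 0.391 (0.188 to 0.799). By pairs it was 1.12 (0.266 to 4.61) for Psmb8 over Psmb5, 0.282 (0.0824 to 0.870) for Psmb9 over Psmb6 and 0.236 (0.0460 to 1.06) for Psmb10 over Psmb7. Psmb8 and Psmb10 thus showed no difference from their counterparts detectable at this depth, and only the interval of Psmb9 over Psmb6 excluded 1.

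The class difference rests on few reads and 3 genes. Without Psmb8 the ratio was 0.480 (0.291 to 0.799) and without Psmb10 it was 0.514 (0.314 to 0.851). Without Psmb9, which holds 29 of the 58 peak-library reads, the ratio was 0.530 with an interval of 0.286 to 1.00 whose upper end, 1.003, passes 1. Psmb8 and Psmb9 are not independent: both islands also lie within 1000 bp of Tap1, a subunit of the peptide transporter for MHC class I, and make up all of its 45 against 32 reads. With islands at no other gene, only Psmb10 is left and the ratio was 0.496 (0.198 to 1.28). Folds below 1 were not limited to the immunoproteasome. They were also found at 6 of the 41 other genes with an island, namely Psma2, Psmb2, Psmb5, Psmc1, Psme3 and Psmg4, and 5 of these lay below the 0.801 of Psmb8.

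The promoter sequences of these genes are shown because the classes were compared above, by islands over gene bodies and flanks and not at promoters alone. Islands cover the windows shown for Psmb8, Psmb9, Psmb5 and Psmb6, but not that of Psmb10. The sequences are the bases before the RefSeq start (GRCm38.p6, the mm10 build), 5′ to 3′ on the strand of the gene, with matches to the 6 motifs described further on in capitals. Psmb8 is shown at chr17:34197945-34198194 on the plus strand, Psmb9 at chr17:34187331-34187580 on the minus strand and Psmb10 at chr8:105938393-105938642 on the minus strand. Psmb5 is shown at chr14:54617996-54618245 on the minus strand and Psmb6 at chr11:70525107-70525323 on the plus strand, stopped where the annotated gene begins. Psmb7 had no entry.
Psmb8: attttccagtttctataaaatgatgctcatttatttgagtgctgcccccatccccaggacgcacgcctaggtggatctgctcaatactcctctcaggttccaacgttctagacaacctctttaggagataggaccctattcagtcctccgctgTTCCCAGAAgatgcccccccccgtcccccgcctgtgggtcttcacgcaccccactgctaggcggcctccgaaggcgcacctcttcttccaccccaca
Psmb9: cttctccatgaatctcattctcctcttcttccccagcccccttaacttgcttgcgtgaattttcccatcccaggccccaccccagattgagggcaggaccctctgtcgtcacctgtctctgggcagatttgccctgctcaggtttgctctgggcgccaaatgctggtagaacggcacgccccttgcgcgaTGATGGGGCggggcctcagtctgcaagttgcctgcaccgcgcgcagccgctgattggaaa
Psmb10: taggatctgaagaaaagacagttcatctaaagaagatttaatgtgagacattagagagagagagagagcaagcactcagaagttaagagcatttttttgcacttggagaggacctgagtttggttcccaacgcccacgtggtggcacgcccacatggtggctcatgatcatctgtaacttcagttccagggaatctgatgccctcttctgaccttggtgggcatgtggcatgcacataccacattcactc
Psmb5: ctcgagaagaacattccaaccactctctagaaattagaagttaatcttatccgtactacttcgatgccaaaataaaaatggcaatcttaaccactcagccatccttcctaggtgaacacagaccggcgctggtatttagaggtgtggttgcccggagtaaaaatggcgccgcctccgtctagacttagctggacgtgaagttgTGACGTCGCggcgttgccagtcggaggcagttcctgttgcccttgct
Psmb6: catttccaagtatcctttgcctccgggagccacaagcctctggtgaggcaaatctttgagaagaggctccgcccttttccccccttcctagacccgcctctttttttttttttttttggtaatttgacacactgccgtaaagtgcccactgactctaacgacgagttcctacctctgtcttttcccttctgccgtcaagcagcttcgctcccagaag

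The capitals mark TTCCCAGAA at Psmb8, a match to the STAT letters TTCNNNGAA from 97 to 89 bases before the start. They also mark matches to the antioxidant response element core, TGANNNNGC, at Psmb9 (TGATGGGGC) and Psmb5 (TGACGTCGC). Psmb6 had a match to the same letters in the last 9 bases before its start, which are not shown. The Psmb10 window held none of the 6 motifs, and no window of these 5 genes held either TCF motif.

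**Figure D4:**
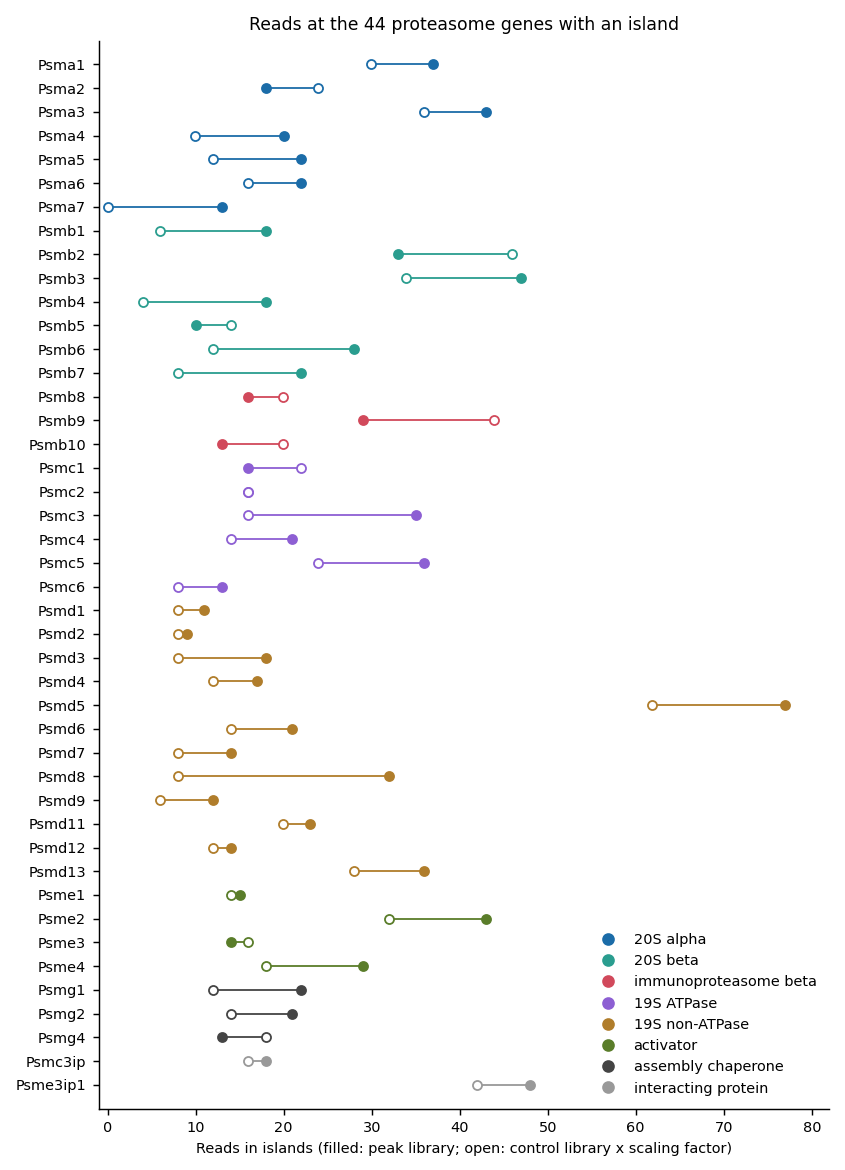
Reads at the 44 proteasome genes with an island (rows, coloured by role): peak-library reads (filled) and control-library reads times the scaling factor (open). The open point lies to the right at 9 genes, Psmb8, Psmb9 and Psmb10 among them, and the widest gap to the right of an open point is at Psmd8.

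The 6 ATPases of the 19S base, Psmc1 to Psmc6, form the ring that unfolds substrates. All 6 had an island and 3 passed an FDR of 0.05. Their reads numbered 137 against 50 in all, for a pooled fold of 1.37 (0.986 to 1.94). Psmc5 had 36 against 12 reads, a fold of 1.50 (0.764 to 3.17), in an island that it shares with Ftsj3. Psmc3 had 35 against 8 reads, for a fold of 2.19 (0.999 to 5.47). Its island of 1000 bp held 35.0 peak-library reads per kb, the highest density of the 44 genes. Psmc4 had 21 against 7 reads, for a fold of 1.50 (0.615 to 4.18). Psmc6 had 13 against 4 reads, Psmc2 16 against 8, and Psmc1 16 against 11. Over these 3 genes the fold went from 1.63 at Psmc6 through 1.00 at Psmc2 to 0.728 at Psmc1, and all 3 intervals included 1. The interacting protein gene Psmc3ip had 18 against 8 reads, for a fold of 1.13 (0.466 to 2.99).

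The Psmd genes encode the other 19S subunits and some base assembly factors. Of the 14 genes 12 had an island, 6 passed an FDR of 0.05, and all 12 folds lay above 1. Only 10.2% of all islands, and 14.7% of islands over a gene start, had a fold below 1. The 12 folds above 1 therefore do not set these genes apart. The 12 islands held 284 against 97 reads, pooling to a fold of 1.47 (1.16 to 1.87). Psmd5, an assembly chaperone of the base, had the most reads of any proteasome gene, 77 against 31, in an island of 4800 bp. Its fold was only 1.24 (0.810 to 1.95). Psmd13, a lid subunit, had 36 against 14 reads, for a fold of 1.29 (0.678 to 2.58). Psmd8, also of the lid, had 32 against 4 reads over its start (island 29179201 to 29181000 on chromosome 7), a fold of 4.01 (1.42 to 15.6). The authors' FDR for it was 4.46e-10, while the exact binomial p was 0.00215 before adjustment. That island also reaches Catsperg1. With Psma7 and Psmb4, Psmd8 was 1 of the 3 genes whose interval lay above 1. The share of all islands with such an interval was not computed.

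Psmd3, a lid subunit, had 18 against 4 reads, for a fold of 2.25 (0.742 to 9.15). Psmd9, a base assembly factor, had 12 against 3 reads, for a fold of 2.00 (0.541 to 11.1), and Psmd7, a lid subunit, 14 against 4 and 1.75 (0.550 to 7.31). The lid subunit gene Psmd6 had 21 against 7 reads, for a fold of 1.50, and the ubiquitin receptor gene Psmd4 had 17 against 6 and 1.42. The base scaffold genes had few reads, 11 against 4 at Psmd1 and 9 against 4 at Psmd2. Of 2 more lid subunit genes, Psmd12 had 14 against 6 reads and Psmd11 had 23 against 10, with folds of 1.17 and 1.15. Psmd14, the deubiquitinase of the lid, had no island, and its nearest lay 11825 bp away. Psmd10, a base assembly factor, had none either.

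The promoters of the 3 genes that illustrate the range are shown for their islands: Psmd5 for the most reads, Psmd8 for the smallest binomial p and Psma7 for the absence of control-library reads. All 3 were picked on these values. Psmd5 is shown at chr2:34870966-34871212, Psmd8 at chr7:29180674-29180923 and Psma7 at chr2:180042465-180042714, all on the minus strand and written 5′ to 3′. The capitals in Psmd5, GCGGTCTCA, are the antioxidant response element core on the opposite strand. The other 2 windows held none of the 6 motifs.
Psmd5: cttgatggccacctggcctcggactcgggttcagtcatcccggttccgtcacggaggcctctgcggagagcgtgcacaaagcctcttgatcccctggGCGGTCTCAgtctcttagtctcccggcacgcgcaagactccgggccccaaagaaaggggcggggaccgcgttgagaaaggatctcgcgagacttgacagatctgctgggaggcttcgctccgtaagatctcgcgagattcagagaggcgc
Psmd8: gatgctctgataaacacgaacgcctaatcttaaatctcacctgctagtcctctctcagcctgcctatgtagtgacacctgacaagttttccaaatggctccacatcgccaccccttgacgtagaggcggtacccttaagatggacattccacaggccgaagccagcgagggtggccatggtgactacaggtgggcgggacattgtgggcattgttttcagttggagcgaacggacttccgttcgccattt
Psma7: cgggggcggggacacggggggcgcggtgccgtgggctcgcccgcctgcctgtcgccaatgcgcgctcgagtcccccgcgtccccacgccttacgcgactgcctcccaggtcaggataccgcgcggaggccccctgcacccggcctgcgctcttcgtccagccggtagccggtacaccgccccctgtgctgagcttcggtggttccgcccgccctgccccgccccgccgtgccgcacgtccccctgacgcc

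The activators open the core in place of the 19S cap. Of the 5 Psme genes 4 had an island, with 101 against 40 reads in all and a pooled fold of 1.26 (0.869 to 1.87). Psme1 and Psme2, which form the interferon-inducible ring PA28 alpha-beta, are near each other on chromosome 14. Psme1 had 15 against 7 reads, for a fold of 1.07 (0.412 to 3.11), in an island that reaches Fitm1. Psme2 had 43 against 16 reads, for a fold of 1.35 (0.743 to 2.56), in an island shared with Rnf31. Psme3, which encodes the nuclear PA28 gamma, had 14 against 8 reads, for a fold of 0.876 (0.343 to 2.41). Psme4, which encodes PA200, had 2 islands, with 12 against 1 reads before the start and 17 against 8 after it. The first had a fold of 6.01 (0.889 to 257) and the second 1.06 (0.435 to 2.85), intervals that overlap widely. Psme3ip1 had 48 against 21 reads, for a fold of 1.14 (0.672 to 2.01).

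The Psmg genes encode chaperones that assemble the alpha ring. Of the 4 genes 3 had an island, with 56 against 22 reads, pooling to a fold of 1.27 (0.766 to 2.19). Psmg1 had 22 against 6 reads, for a fold of 1.84 (0.722 to 5.54), and its partner Psmg2 had 21 against 7 and 1.50 (0.615 to 4.18). Psmg4 had 13 against 9 reads, for a fold of 0.723 (0.286 to 1.92). Psmg3, its partner, had no island within 30213 bp.

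Other genes of the pathway also carried islands. Of 28 listed genes 27 were matched. Islands lay at 25, against 47.5% of all protein-coding genes, and islands passing an FDR of 0.05 at 16, against 31.6%. Together they held 899 against 345 reads, pooling to a fold of 1.30 (1.15 to 1.48). The 16 were Uchl5, Nfe2l2, B2m, Adrm1, Ubqln4, Akirin2, Ecpas, Ddi2, Pomp, Sem1, Rps27a, Nfe2l1, Ubqln1, Tap2, Usp14 and Uba1. Akirin2, which brings proteasomes into the nucleus, had 40 against 7 reads over 3 islands and a pooled fold of 2.86 (1.27 to 7.57). Adrm1, a ubiquitin receptor of the 19S cap, had 16 reads against 0, with an exact lower limit of 1.93 for the fold. Nfe2l1, the factor that raises proteasome genes when proteasomes are inhibited, had 42 against 15 reads, for a fold of 1.40 (0.762 to 2.72). Of the genes for loading MHC class I, Tap1 stood at 0.704 (0.438 to 1.15), Tapbp at 0.952 (0.601 to 1.53), Tap2 at 1.45 (0.688 to 3.34) and B2m at 1.46 (0.740 to 3.09). Tap1 has no island of its own here, since both are those of Psmb8 and Psmb9. Psmf1, the inhibitor PI31, had no island.

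The 250 bases before each listed start were searched on both strands for 6 motifs in the 42 proteasome genes with an entry and in 17492 genes in all. The TCF letters CTTTGAT were found at 1 of the 42 genes (Psmd10, which has no island), against 3.30% of all genes, and CTTTGAA at none, against 4.81%. The antioxidant response element core TGANNNNGC, bound by NFE2L1 and its relatives, was found at 18 of the 42 (42.9%), against 38.9% of all genes. The STAT letters TTCNNNGAA were found at Psmb8 and Psmg1, against 7.65% of all genes. The IRF letters, GAAA and GAAA with any pair of bases between them, were found at Psmb3, Psmd4 and Psmd9, against 3.48%. The ETS letters CCGGAAG were found at 13 of the 42 (31.0%), against 10.2% of all genes. A match describes these letters only, not a bound site, and the motifs can overlap each other.

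The ETS matches are shown because they were the motif with the largest gap between the share of proteasome genes and that of all genes, which was seen after the search. Each line gives the match in capitals with up to 9 bases on either side, read on the strand that holds CCGGAAG, at the match nearest to a listed start.
Psma6: agccaccacCCGGAAGcccgcggac
Psmc1: tcgccaccgCCGGAAGtgcatccac
Psmc2: tcttccccaCCGGAAGtagctccgc
Psmc6: gcgggccagCCGGAAGgggcggagc
Psmd2: tcctccagaCCGGAAGcgccctgcg
Psmd4: acagctgttCCGGAAGctgctgcga
Psmd6: gagacgcgaCCGGAAGtcagactgg
Psmd11: acacCCGGAAGacccgccct
Psmd12: tcactcgcaCCGGAAGtcgcccgct
Psme3: gcacaaggcCCGGAAGctccgacag
Psme4: ggccccgccCCGGAAGtgacttgag
Psmg1: cgcggcggaCCGGAAGctcttaggt
Psmc3ip: gcctcctcaCCGGAAG

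The matches lay between 1 base before the start, at Psmc3ip, and 126 bases before it, at Psma6. They spanned ATPases, other 19S genes, activators, a chaperone, Psmc3ip and 1 alpha gene (Psma6). No beta gene with a window had a match, and Psmb1, Psmb2 and Psmb7 had no window to search. The 13 genes with the letters all had an island, with 234 against 95 reads, pooling to a fold of 1.23 (0.968 to 1.58). The 29 genes with a window that lacked them had islands at 24, with 658 against 258 reads, pooling to a fold of 1.28 (1.10 to 1.48). The 2 intervals overlap almost fully. The genes with and without the antioxidant response element core likewise stood at 1.23 (1.03 to 1.47) and 1.31 (1.09 to 1.57).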

How the data were processed

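TCF-1 ChIC-seq was done on 2 libraries of sorted LTi cells. Reads were aligned to mm10 with Bowtie2 2.4.2 and SICER 2.0 called the islands, as the submitters' processing notes list; its window, gap and duplicate settings are not stated in the labels. Read counts per island were deposited unscaled, as a peak and a control column (2 columns tied to no sample). The fold was deposited as a ratio of peak to scaled control reads; the factor, 1.997, was recovered from it. P-values and FDR per island were deposited by the authors over all islands.

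Starts and ends in the table count from 0, so 1 was added. Gene positions, start sites and promoter sequences came from RefSeq tables of GRCm38.p6. Pooled folds count each island once and use exact conditional binomial intervals. The ratio of 2 pooled folds has the exact conditional interval of the odds ratio. The one-sided binomial test was adjusted by Benjamini-Hochberg over 19531 islands. It was also run on simulated reads drawn from the same binomial model, so dependence between reads, such as PCR copies, was not checked. Python 3.11.15 and scipy 1.17.1 were used. All members were named; full values were given for the immunoproteasome genes, their counterparts, and the 3 genes of each role with the most peak-library reads. The members, lists, motifs and alternatives were chosen with earlier results of these data known. The list of B cell markers is not reported here. Alternatives changed the flank, overlap, FDR limit, scaling, shared islands, member list and leading gene.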

Additional observations from a re-analysis of the deposited data

How the results depend on the processing

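The number of proteasome genes with an island stayed at 44 with gene bodies alone and with 200 bp of overlap, became 45 with 10000 bp on either side and 42 without Psme2b and the 2 genes that are no proteasome parts. It was 23 with islands at an FDR of 0.05 or less and 5 at 1e-05 or less. The 23 islands called at an FDR of 0.05 or less became 5 at 1e-05 or less, 0 by the exact binomial test (8 at an unadjusted p under 0.05) and 41 with 10000 bp on either side. With equal totals the pooled fold was 1.01 for all genes, 1.07 for the constitutive genes and 0.540 (0.357 to 0.824) for the immunoproteasome genes, an interval that no longer includes 1. Those totals include the 18 mitochondrial or high-read islands. Unscaled, the values were 2.59, 2.73 and, for the immunoproteasome genes, 1.38. With islands at an FDR of 0.05 or less alone, which picks high folds, all genes and the constitutive genes both stood at 1.82, and no immunoproteasome island was left, so neither its fold nor the ratio could be computed. The ratio of immunoproteasome to constitutive fold ran from 0.480, without Psmb8, to 0.583, with 10000 bp on either side, over the alternatives that gave one, and its interval reached past 1 without Psmb9 and with islands at no other gene. With constitutive islands over their own start alone it was 0.517 (0.334 to 0.809). That alternative and those without Psmb8, without Psmb10 and without Psmc3ip and Psme3ip1 were chosen after seeing the data. No paired analysis was possible because each group has 1 library. With a median of 18 peak-library and 7 control-library reads per island, single genes that differ by less than several-fold cannot be told apart.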
